A study of Mus musculus with 6 samples.

Results

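The extracellular matrix of the hippocampus was described here through 10 genes: the lecticans Acan, Bcan, Ncan and Vcan, the link protein genes Hapln1, Hapln2 and Hapln4, the tenascins Tnr and Tnc, and the hyaluronan synthase Has2. They were chosen by name, as the main components of perineuronal nets and of the looser brain matrix, and all 10 were found among the 55471 genes of the count table. RNA-seq had been performed on the hippocampus of 3 p300-ifKO mice and 3 control mice with 1 library per mouse, of the C57BL/6 strain per the labels and C57BL/6J per the methods of the study. The p300-ifKO (inducible forebrain knockout) mice carried a floxed Ep300 gene and Camk2a_creERT2, a tamoxifen-dependent Cre recombinase driven by the Camk2a promoter, which is active in excitatory neurons of the forebrain. The RNA was therefore that of the whole tissue, whereas recombination was directed to excitatory neurons alone, and other cell types kept an intact gene. Mice of both groups were 3 to 6 months old per the labels, and the methods of the study give a narrower age within that range for this experiment. They had received 5 intragastric doses of tamoxifen at 20 mg/ml, and tissue was taken about a month after gene ablation. The treatment protocol calls the controls littermates without creERT2, while the description attached to each control library names Camk2a_creERT2.

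Perineuronal nets are condensed sheets of matrix around the soma and proximal dendrites of certain neurons, mainly parvalbumin interneurons and, in the hippocampus, CA2 pyramidal cells. Hyaluronan, made at the plasma membrane by hyaluronan synthases, forms the backbone, lecticans (chondroitin sulfate proteoglycans) bind to it through their N-terminal domain, link proteins lock that bond, and tenascin-R crosslinks the other end of the lecticans. Nets close developmental periods of high plasticity and are known to restrain synaptic remodelling in the adult, while the looser matrix between cells contains the same families in other proportions.

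Libraries held between 23151568 and 28433823 counted reads, and all 15 pairs of libraries differed by more than sampling noise. Ep300, the targeted gene, measured 1545, 1474 and 2334 normalized counts (counts divided by the size factor of the library) in control mice and 478, 1350 and 912 after recombination. The groups did not overlap, but p300-ifKO replicate 2 lay close to the controls, and the DESeq2 log2 fold change was -0.97 (SE 0.33, adjusted p = 0.991). Esr1, whose ligand-binding part belongs to creERT2, measured 109, 87.2 and 108 normalized counts in controls and 4217, 2416 and 2868 in p300-ifKO mice. No control library thus showed the Esr1 level of the mice that carry creERT2. Markers of the labelled tissue were abundant, with 9 excitatory neuron markers summing to between 166864 and 192439 normalized counts per library, and none of the genes of 11 marker lists was at 0 in all libraries. Genes with long exonic sequence tended to be lower in p300-ifKO mice, with a Spearman rho of -0.44 between log2 fold change and exonic length over 17071 genes.

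None of the 10 matrix genes passed the threshold between p300-ifKO and control mice in the DESeq2 test. Their adjusted p values were between 0.991 and 0.997, and over all genes only 2 of 32773 (0.0061%) passed. Esr1 was among these 2 (DESeq2 adjusted p = 4.5e-92). The paper reports Esr1 and Arsi as the only changed genes of these mice and ties both to the Camk2a-creERT2 transgene. Log2 fold changes of the 10 matrix genes ran from -0.44 for Tnr to 0.11 for Hapln2. Their median was -0.18 against -0.046 over all genes tested. That median was -0.0063 without p300-ifKO replicate 1, -0.062 without control replicate 1, -0.087 without control replicate 3, -0.014 with 1 surrogate variable and -0.098 with offsets for length and GC content. Of the 10 genes, 6 had a lower mean in p300-ifKO mice (Acan, Ncan, Vcan, Hapln1, Tnr and Has2) and 4 a higher one (Bcan, Hapln2, Hapln4 and Tnc), where 54.7% of all genes were lower by any amount. Tnr alone had an unadjusted p under 0.05, compared with 1.32% of all genes. In none of the 10 did the 3 values of a group lie entirely above or below those of the other, which was the case for 6.64% of all genes. These shares include genes with very few counts. Among the 17070 genes with a mean normalized count above 10, to which the 10 belong, the median log2 fold change was -0.0051. Of these genes, 50.7% were lower and 7.46% did not overlap between the groups.

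**Figure D1:**
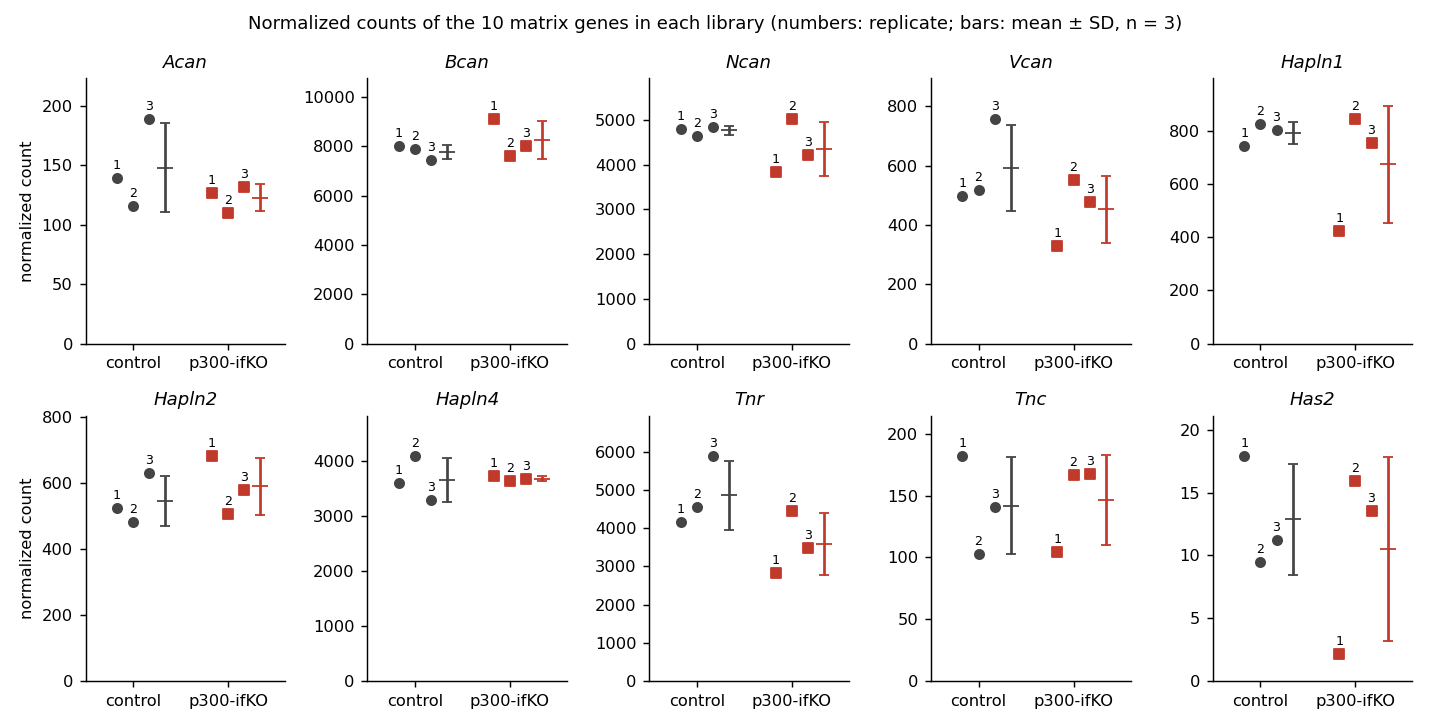
Normalized counts (vertical axes, starting at 0) of the 10 matrix genes in the 3 control libraries (grey circles) and the 3 p300-ifKO libraries (red squares), numbered by replicate, with the mean and SD of each group beside the points. The groups overlap in every panel, and p300-ifKO replicate 1 is the lowest library for Ncan, Vcan, Hapln1, Tnr and Has2.

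The levels of these genes differed widely. Compared per exonic length, as reads per kilobase of exonic sequence scaled to the counted reads of the library (RPKM), Bcan was the highest at 79.0 ± 6.09 (SD over 6 libraries) and exceeded 98.7% of the genes detected. Next came Hapln4 at 37.5 ± 2.37 RPKM and Ncan at 25.4 ± 2.36 RPKM. These 3 steps of the order held in 6 of 6 libraries with no overlap of ranges, from Bcan to Hapln4, from Hapln4 to Ncan and from Ncan to Tnr.

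Tnr followed at 13.2 ± 3.20 RPKM and Hapln2 at 9.58 ± 1.37 RPKM. This pair was not separated: Tnr was above Hapln2 in 5 of 6 libraries, and in p300-ifKO replicate 1 the order was the reverse, with 8.86 against 11.5 RPKM. Hapln1 stood clear of both its neighbours at 4.98 ± 1.04 RPKM, and Vcan measured 1.44 ± 0.383 RPKM.

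Tnc and Acan had nearly the same level, 0.744 ± 0.18 and 0.726 ± 0.155 RPKM, and Tnc was the higher of them in 3 of 6 libraries. The range of Tnc touched that of Vcan, although Vcan was higher in each of the 6 libraries. Has2 came last at 0.111 ± 0.0530 RPKM, above 38.8% of detected genes. Aggrecan, the usual marker of nets, thus stood near the bottom of the order and brevican at its top. TPM (transcripts scaled to a fixed library total) differs from RPKM only by a factor common to all genes of a library. Its identical order is therefore no separate check. CPM, which is not divided by length, left 5 of 10 genes at the same rank.

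**Figure D2:**
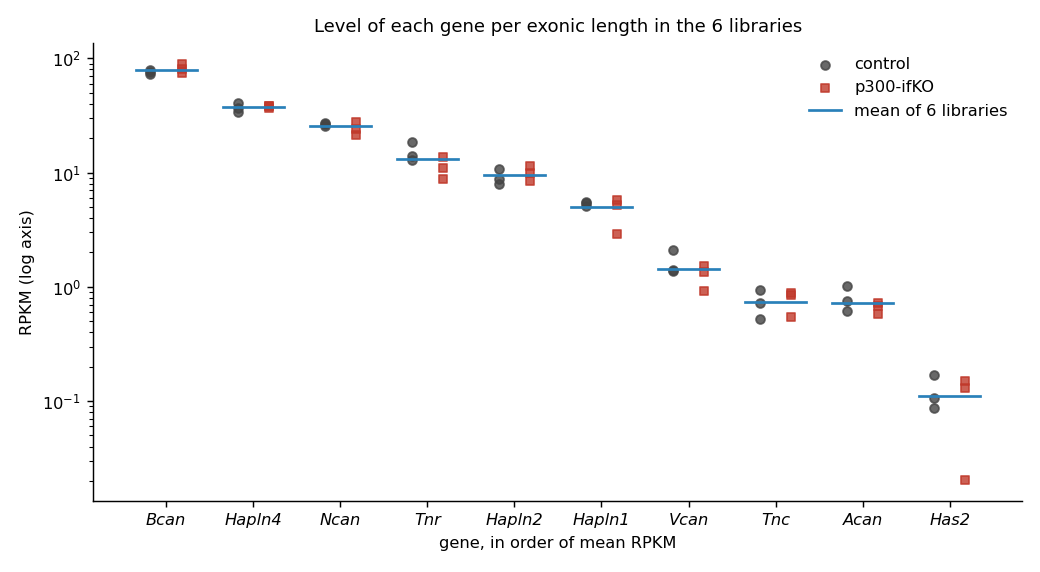
RPKM on a log axis for each matrix gene in the 6 libraries, in order of the mean of the 6 (blue lines), with controls as grey circles and p300-ifKO mice as red squares. Bcan, at 79.0 RPKM, and Has2, at 0.111 RPKM, mark the ends of the order, and the points of Tnc and Acan share a range.

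Among the lecticans, Bcan encodes brevican, a small proteoglycan of adult brain made by astrocytes and neurons. It lies on the minus strand at chr3:87987531-88000230 of GRCm38 and has 4064 bases of exonic sequence. Normalized counts were 8004, 7871 and 7442 in controls and 9113, 7606 and 8017 in p300-ifKO mice. The highest value came from p300-ifKO replicate 1 and the lowest from control replicate 3, and the groups overlapped. The log2 fold change was 0.085 (SE 0.12, 95% interval -0.15 to 0.32, DESeq2 adjusted p = 0.991), so that a change of 0.5 in either direction lay outside the interval.

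Ncan, on chr8:70093085-70120873, minus strand, encodes neurocan, which is most abundant in the developing brain and persists in the adult matrix. Its normalized counts were 4805, 4640 and 4844 in controls and 3843, 5022 and 4209 in p300-ifKO mice. Controls kept within a narrow band, whereas the p300-ifKO mice extended on both sides of it. Neurocan transcripts gave a log2 fold change of -0.13 (SE 0.14, 95% interval -0.40 to 0.14, DESeq2 adjusted p = 0.991). It was -0.047 when p300-ifKO replicate 1 was left out and -0.24 when replicate 2 was.

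Vcan (chr13:89655312-89742509, minus strand) encodes versican, a large proteoglycan of the loose matrix that is produced among others by cells of the oligodendrocyte lineage. It measured 496, 518 and 757 normalized counts in controls and 330, 551 and 475 in p300-ifKO mice. Of the 3 p300-ifKO mice, 2 lay below the lowest control, while replicate 2 lay above control replicates 1 and 2. The mean was 590 ± 145 in controls and 452 ± 113 in p300-ifKO mice (SD, n = 3 each), with a log2 fold change of -0.38 (SE 0.25, 95% interval -0.87 to 0.099, DESeq2 unadjusted p = 0.120, adjusted p = 0.991). Without control replicate 3 it was -0.16, without p300-ifKO replicate 1 it was -0.20, and with 1 surrogate variable it was -0.065.

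Acan (chr7:79053483-79115099, plus strand) encodes aggrecan, the lectican that marks mature nets most specifically. Normalized counts were 139, 116 and 189 in controls and 127, 110 and 131 in p300-ifKO mice. Control replicate 3 was the highest and the other 5 libraries lay close together. The log2 fold change of -0.27 (SE 0.25, 95% interval -0.76 to 0.21, DESeq2 adjusted p = 0.991) was -0.056 without that control library. The genes with the pattern most like that of Acan over the 6 libraries were Mipol1 (Pearson r = 0.985), Armc2 (r = 0.985) and Ephb4 (r = 0.984), and 37 of the 13613 genes compared had an r over 0.9, which with 6 points that share depth and tissue is a description only. Among the other matrix genes the closest to Acan was Vcan, with r = 0.553, and the farthest was Hapln4, with r = -0.795.

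Within each library brevican and neurocan made up nearly all of the lectican transcripts per length. The share of Bcan in the summed lectican RPKM was between 70.9% and 79.6% over the 6 libraries and that of Ncan between 19.0% and 26.6%. Vcan contributed 0.810% to 2.03%, and Acan 0.559% to 0.979%. The ratio of Bcan to Ncan was 2.95, 3.00 and 2.72 in controls and 4.20, 2.68 and 3.37 in p300-ifKO mice. Replicate 2 of the p300-ifKO mice had the lowest ratio and replicate 1 the highest of all 6, so the groups overlapped.

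Each lectican gene has a link protein gene beside it on the same chromosome, with no protein-coding gene between them. Ncan and Hapln4 lie 2.2 kb apart on opposite strands of chromosome 8, Bcan and Hapln2 lie 21.5 kb apart on the same strand of chromosome 3, and Vcan and Hapln1 lie 43.7 kb apart on opposite strands of chromosome 13. Acan and Hapln3, a link protein gene expressed mainly outside the nervous system, lie on opposite strands of chromosome 7 with only 2 bases between their annotated ends. Hapln3 measured 38.8, 34.7 and 32.7 normalized counts in controls and 68.7, 45.1 and 48.2 in p300-ifKO mice, which did not overlap (log2 fold change 0.60, SE 0.33, DESeq2 unadjusted p = 0.0662, adjusted p = 0.991). The groups did not overlap for 7.46% of genes with a mean normalized count above 10. Reads that run past the end of either gene of this pair cannot be assigned with certainty, since no strand setting was stated.

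Hapln4 encodes the brain link protein that binds brevican at nets and at perisynaptic sites of inhibitory terminals, and lies on chr8:70083457-70090862, plus strand. It measured 3611, 4093 and 3299 normalized counts in controls and 3739, 3642 and 3673 in p300-ifKO mice. The p300-ifKO values all lay inside the control range. Its log2 fold change was 0.0067 (SE 0.13, 95% interval -0.24 to 0.25, DESeq2 adjusted p = 0.997), and the interval left out changes of 0.5 in both directions.

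Hapln2 (chr3:88021750-88027583, minus strand) encodes a link protein that is made by oligodendrocytes and sits in the matrix at nodes of Ranvier. Its normalized counts were 524, 481 and 629 in controls and 680, 506 and 579 in p300-ifKO mice. Replicate 1 of the p300-ifKO mice was the highest and the other p300-ifKO values lay within the control range. This gave a log2 fold change of 0.11 (SE 0.18, 95% interval -0.24 to 0.46, DESeq2 adjusted p = 0.991). The summed normalized counts of 10 oligodendrocyte markers were between 112008 and 154269 in controls and between 121777 and 155456 in p300-ifKO mice, and control replicate 3 and p300-ifKO replicate 1 were the highest libraries of their groups both for these markers and for Hapln2. The part of the marker level in the Hapln2 values was not tested.

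Hapln1 (chr13:89539796-89611652, plus strand) encodes cartilage link protein, the link protein whose loss in the central nervous system leaves nets attenuated. It measured 746, 827 and 803 normalized counts in controls and 425, 847 and 754 in p300-ifKO mice. A single library, p300-ifKO replicate 1, stood far below, while replicate 3 lay inside the control range and replicate 2 just above it. Over the groups the log2 fold change was -0.23 (SE 0.25, 95% interval -0.71 to 0.25, DESeq2 adjusted p = 0.991), and without that library it was 0.014. The ratio of Hapln4 to Hapln1 RPKM within a library was 13.2 in p300-ifKO replicate 1 and between 6.18 and 7.45 in the other 5 libraries.

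Because p300 is a coactivator recruited by CREB, promoters were searched for the cyclic AMP response element TGACGTCA and its shorter core TGACG, on both strands. RefSeq promoter windows of 300 bases (250 before to 50 after the start site, GRCm38.p6) were at hand for 8 of the 10 genes, with 9 windows in all. The full element was in 0 of the 9 windows, against 1.79% of 32851 windows over all genes. The core, which is also contained in the full element, was found in 1 of the 9, that of Hapln1, against 20.8% of all windows. The match begins 29 bases into the transcript, and the stretch chr13:89540652-89540681 of the plus strand is shown with the core in capitals.
Hapln1: gaagtctcctggTGACGctttgcctttctt
Such a match is a description of the letters and not evidence of binding.

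The ratio of the summed link protein RPKM (Hapln1, Hapln2 and Hapln4) to the summed lectican RPKM was among the most even quantities of the set. It was 0.471, 0.526 and 0.481 in controls and 0.466, 0.490 and 0.502 in p300-ifKO mice. The means, 0.493 ± 0.0295 and 0.486 ± 0.0183 (SD, n = 3 each), differed by less than the spread of either group.

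Tnr encodes tenascin-R, the trimeric glycoprotein that crosslinks lecticans in nets and is made by oligodendrocyte lineage cells and by some interneurons. The gene spans chr1:159523769-159931729 on the plus strand, has 12867 bases of exonic sequence and gave the largest difference between the groups relative to its error. The 250 bases before its start site, chr1:159523519-159523768 of the plus strand, are shown as the promoter of the gene with the lowest unadjusted p of the set. They held no TGACG on either strand and so carry no capitals.
Tnr: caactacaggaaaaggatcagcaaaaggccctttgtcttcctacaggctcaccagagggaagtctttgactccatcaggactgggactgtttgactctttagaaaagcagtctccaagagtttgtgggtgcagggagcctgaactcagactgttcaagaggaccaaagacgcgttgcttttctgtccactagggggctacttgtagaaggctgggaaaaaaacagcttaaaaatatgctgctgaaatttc

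Tnr measured 4155, 4571 and 5890 normalized counts in controls and 2833, 4442 and 3489 in p300-ifKO mice. Replicates 1 and 3 of the p300-ifKO mice were below all controls, and replicate 2 lay between control replicates 1 and 2. The group means were 4872 ± 906 and 3588 ± 809 (SD, n = 3 each). DESeq2 gave a log2 fold change of -0.44 (SE 0.21, 95% interval -0.85 to -0.033, unadjusted p = 0.0342, adjusted p = 0.991). In bulk tissue, fewer cells that make a transcript and less transcript per cell cannot be told apart. Of the exonic bases of Tnr, 3.44% overlap Gm38039, a transcript of the opposite strand, and no strand setting was stated to separate their reads.

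Without p300-ifKO replicate 2, the library with the highest Ep300 level of its group, the log2 fold change of Tnr was -0.62 and it passed the threshold (DESeq2 adjusted p = 0.0242). In that fit 926 of 11726 genes (7.9%) passed, and Tnr was the only one of the 10 matrix genes among them. The same library was the only p300-ifKO library in which deviations were higher for longer transcripts (Spearman rho 0.42 over 17071 genes, against -0.50 and -0.28 in replicates 1 and 3, and 0.16 to 0.41 in controls), so that without it the sign of this trend separated the groups. The Ep300 levels of the 3 p300-ifKO libraries ran in the same order as these rho values. Ep300 counts cover the whole gene, and the paper reports a truncated p300 in these mice, so they are no direct measure of recombination. The part of that trend in the call of Tnr or in the Ep300 levels was not tested. In the other 13 alternative fits it did not pass, and its log2 fold change was between -0.18, with 1 surrogate variable, and -0.54, without control replicate 1. The direction was the same in all 14, and the value was -0.28 without control replicate 3 and -0.30 without p300-ifKO replicate 1. Summed normalized counts of 7 oligodendrocyte precursor markers were 6789 to 7184 in controls and 6536 to 6764 in p300-ifKO mice, and those of 9 interneuron markers were 28028 to 31192 and 27179 to 28391. The precursor sums did not overlap between the groups, by a narrow margin, and the interneuron sums did. Of the precursor markers, 4 were lower (Pdgfra, Cspg4, Gpr17 and Lhfpl3) and 3 higher (Olig1, Olig2 and Sox10). Among the interneuron markers, 7 were lower and 2 higher (Pvalb and Sst). Pvalb measured 820, 809 and 616 normalized counts in controls and 1433, 679 and 874 in p300-ifKO mice, with overlap. Its log2 fold change was 0.41 (SE 0.27, DESeq2 adjusted p = 0.991). The part of either marker list in the values of Tnr was not tested.

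**Figure D3:**
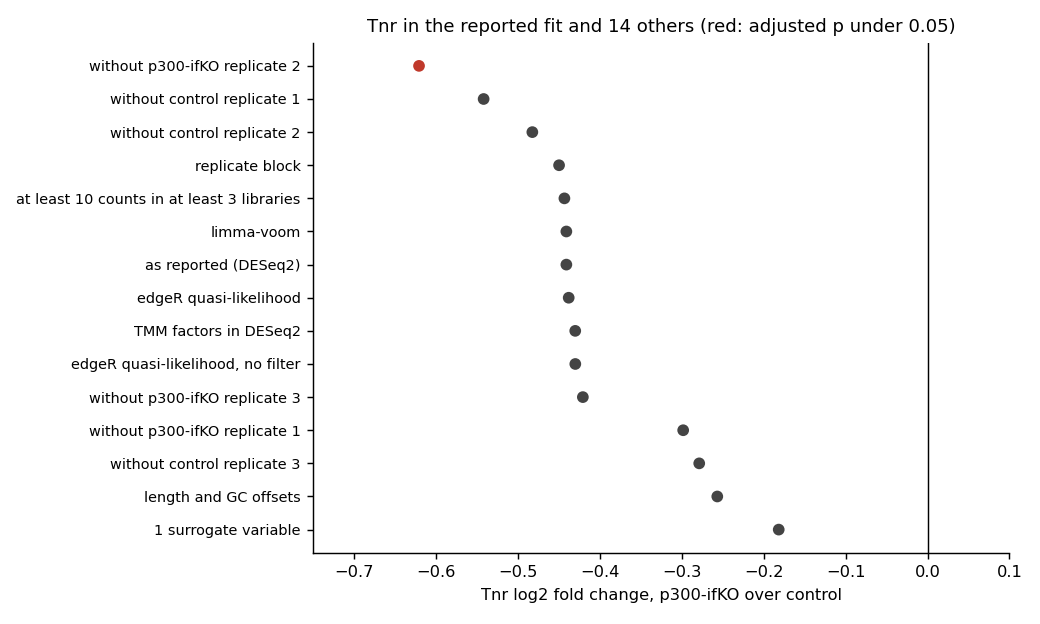
Log2 fold change of Tnr (horizontal axis, p300-ifKO over control) in the reported DESeq2 fit and in 14 alternatives (vertical axis), ordered by value, with a red point where the adjusted p was under 0.05. All 15 points lie below 0, from -0.62 to -0.18, and only the fit without p300-ifKO replicate 2 is red.

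Tnc encodes tenascin-C, which is high in the developing brain and in neurogenic niches and is retained at a low level in adult astrocytes. The gene lies on chr4:63959785-64047015, minus strand, and 2.26% of its exonic bases overlap 8030451A03Rik, a transcript of the opposite strand. Without a stated strand setting, reads of that stretch could not be told apart. Normalized counts were 182, 103 and 141 in controls and 104, 167 and 168 in p300-ifKO mice. All p300-ifKO values fell inside the control range, and each group held a library at the lower end of that range. For tenascin-C the log2 fold change was 0.046 (SE 0.29, 95% interval -0.52 to 0.61, DESeq2 adjusted p = 0.997), and it turned to -0.14 without control replicate 2. The ratio of Tnr to Tnc RPKM was 13.8, 26.8 and 25.3 in controls and 16.4, 16.1 and 12.6 in p300-ifKO mice, with overlap.

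Has2 encodes a hyaluronan synthase of the plasma membrane and lies on chr15:56665627-56694539, minus strand. Raw counts were only 18, 9 and 11 in controls and 2, 18 and 14 in p300-ifKO mice. The lowest value was that of p300-ifKO replicate 1 and the highest raw count was shared by a control and a p300-ifKO library. The log2 fold change of -0.28 had an SE of 0.73 and a 95% interval from -1.71 to 1.15 (DESeq2 adjusted p = 0.991), so that a change of 1 in either direction lay within the interval. Of the exonic bases of Has2, 4.3% overlap Has2os, a transcript of the opposite strand whose reads could not be told apart from it.

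The 95% intervals of the set were narrow enough to leave out a log2 change of 0.5 in either direction for Bcan, Ncan, Hapln2 and Hapln4, the 4 genes that together with Tnr were the highest per length. A decrease by 1 on the log2 scale lay outside the interval for 9 of the 10, all except Has2. For Acan, Vcan, Hapln1, Tnr and Tnc a change of 0.5 in at least 1 direction stayed within the interval.

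**Figure D4:**
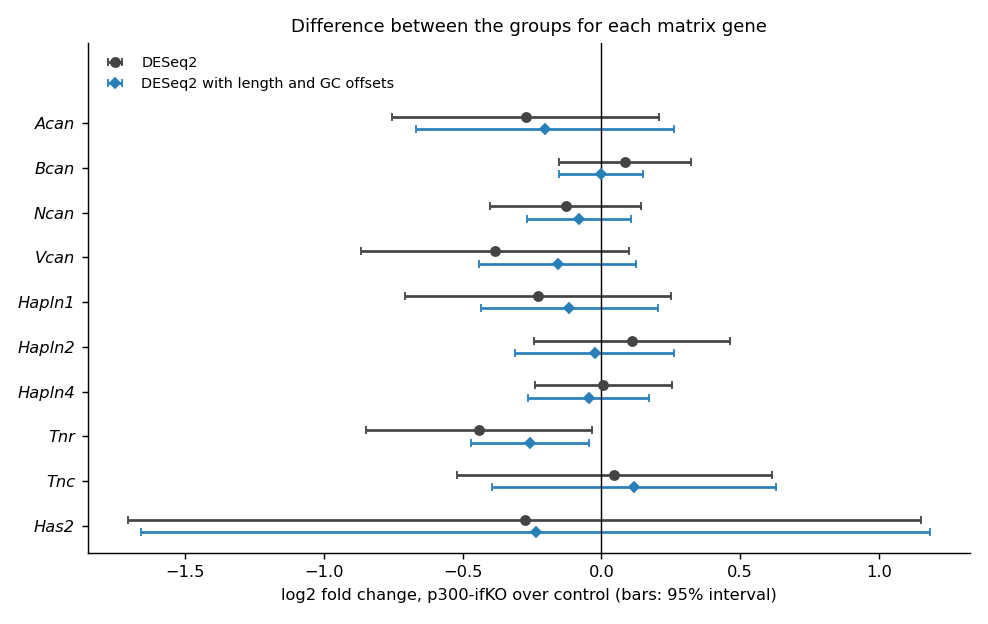
Log2 fold change of each matrix gene (horizontal axis, p300-ifKO over control) with its 95% interval, from DESeq2 (grey circles) and from DESeq2 with offsets for exonic length and GC content (blue diamonds). Only the intervals of Tnr end below 0 in both fits, and that of Has2 is the widest.

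Several of the matrix transcripts are among the longest in the tissue, and the log2 fold changes of all genes followed exonic length. Of genes with a mean normalized count above 10, the third with the longest exonic sequence (5500 bases or more) had a median log2 fold change of -0.12, and 76.5% of it was lower in p300-ifKO mice. Acan, Ncan, Vcan, Hapln1, Tnr and Tnc belong to this class, and all of them except Tnc were lower. In the shortest class, up to 2971 bases, the median was 0.16 and 28.6% of genes were lower, and its only matrix gene, Hapln2, was higher. Bcan, Hapln4 and Has2 fall in the middle class, where 47.0% of genes were lower. Over the 10 genes, rho was -0.70 between log2 fold change and exonic length and 0.73 between log2 fold change and GC content, as a description of genes that share the same 6 libraries.

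**Figure D5:**
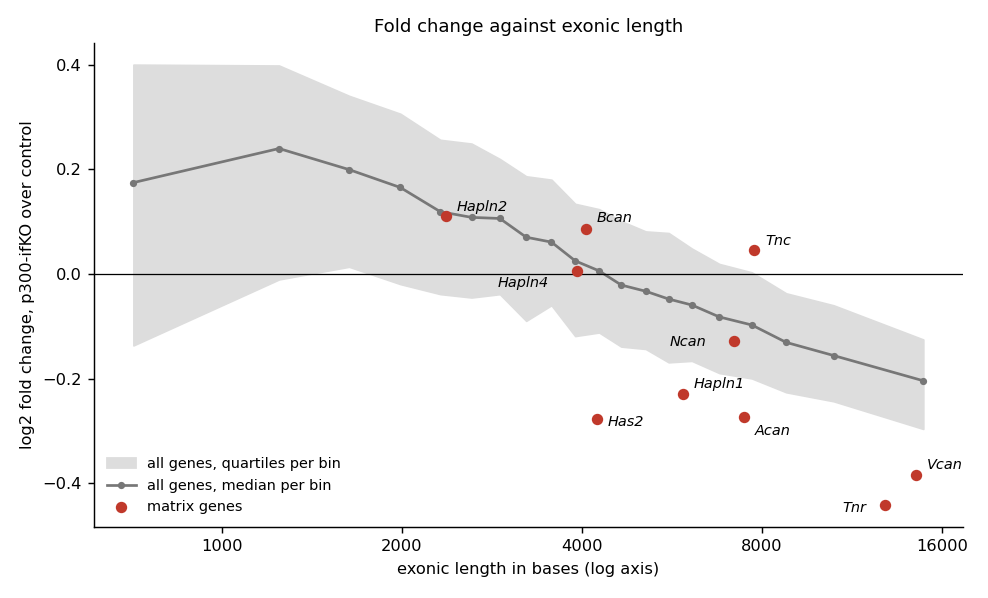
Log2 fold change (vertical axis, p300-ifKO over control) against exonic length in bases (log axis) for the 10 matrix genes (red) and for all genes with a mean normalized count above 10, as the median (line) and quartiles (band) of 20 bins of equal size. The median of all genes runs from above 0 to below 0 with length, Hapln2, Bcan, Hapln4 and Ncan lie within the band, Has2, Hapln1, Acan, Tnr and Vcan lie below it, and Tnc lies above it.

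The same trend was visible in single libraries. The Spearman rho between exonic length and the deviation of a library from the mean of all libraries was 0.18, 0.16 and 0.41 in control replicates 1, 2 and 3, and -0.50, 0.42 and -0.28 in p300-ifKO replicates 1, 2 and 3 (17071 genes). The library with the strongest negative trend, p300-ifKO replicate 1, was also the lowest of the 6 for Ncan, Vcan, Hapln1, Tnr and Has2, and the highest for Bcan and Hapln2. Control replicate 3, with a positive trend, was the highest for Acan, Vcan and Tnr. The library with the strongest positive trend, p300-ifKO replicate 2, was the highest for Ncan and Hapln1 but the lowest for Acan, which also belongs to the longest class.

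With smooth offsets for length and GC content in each library, the log2 fold change of Vcan was -0.16 in place of -0.38, that of Acan -0.20 in place of -0.27 and that of Hapln1 -0.12 in place of -0.23. Tnr was at -0.26 in DESeq2 with these offsets (SE 0.11, unadjusted p = 0.0179, adjusted p = 0.954). Its offset-normalized counts were 4089, 4548 and 4968 in controls and 3655, 4024 and 3706 in p300-ifKO mice. On this scale the groups did not overlap, which was the case for 1 of the 10 matrix genes and for 8.03% of the 17053 genes fitted. Bcan, at -0.00028, Hapln2, at -0.025, and Hapln4, at -0.046, changed sign. With the offsets 9 of 10 genes were lower by any amount, Bcan among them, against 43.7% of the genes fitted, and 0 passed the threshold.

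The genes that build, modify and read this matrix were followed in 4 lists with 60 genes, of which 59 could be tested. None of them passed the DESeq2 threshold in either direction. Among 12 other hyaluronan, link and tenascin genes, 7 were lower and 5 higher, with a median log2 fold change of -0.051. The smallest unadjusted p were those of Hapln3, given above, and of Cd44, a hyaluronan receptor of glia, with 97.1 ± 36.0 normalized counts in controls and 62.4 ± 13.5 in p300-ifKO mice (SD, n = 3 each, log2 fold change -0.64, SE 0.35, unadjusted p = 0.0700, adjusted p = 0.991 in DESeq2). Has3, a hyaluronan synthase like Has2, measured 116, 101 and 100 normalized counts in controls and 94.5, 89.3 and 62.7 in p300-ifKO mice. Its p300-ifKO values were all below the controls, and those of Hyal3 were all above them. Groups without overlap were found for 7.46% of genes with a mean normalized count above 10.

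Of 22 enzymes that make or sulfate chondroitin sulfate, the sugar chain carried by lecticans, 12 were lower and 10 higher, with a median of -0.064. Ust, a uronyl 2-sulfotransferase, measured 1822, 1828 and 1740 normalized counts in controls and 1229, 1682 and 1561 in p300-ifKO mice (log2 fold change -0.27, SE 0.15, DESeq2 adjusted p = 0.991). Chst11, a chondroitin 4-O-sulfotransferase, measured 2180, 2202 and 2280 in controls and 1598, 2164 and 1798 in p300-ifKO mice (log2 fold change -0.26, SE 0.15, DESeq2 adjusted p = 0.991). In both the p300-ifKO values were all below the controls, with replicate 2 again the nearest to them. These 2 were named for the smallest unadjusted p of the list, and Csgalnact1 and Dsel were also below all controls. Of genes with a mean normalized count above 10, 7.46% did not overlap between the groups.

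Of 15 matrix proteases and their inhibitors, 14 could be tested, and Mmp3 had 0 counts in all libraries. The median log2 fold change was -0.19, with 12 lower and 2 higher. It was -0.065 without control replicate 3, and with 1 surrogate variable 8 were lower and 6 higher. With length and GC offsets the median was -0.27, with 9 lower and 4 higher. Adamts1 and Adamts15, secreted proteases that cleave lecticans, had the smallest unadjusted p of the list. Adamts1 measured 548, 486 and 544 normalized counts in controls and 339, 457 and 385 in p300-ifKO mice (log2 fold change -0.42, SE 0.17, unadjusted p = 0.0125, adjusted p = 0.991 in DESeq2). Adamts15 measured 172, 124 and 177 in controls and 94.5, 120 and 113 in p300-ifKO mice (log2 fold change -0.53, SE 0.23, unadjusted p = 0.0234, adjusted p = 0.991 in DESeq2). For both genes, and for Adamts5 of the same list, the groups did not overlap, beside 7.46% of genes with a mean normalized count above 10. Control replicate 2 of Adamts15 was close to p300-ifKO replicate 2.

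The last list held 11 receptors and ligands of nets and of chondroitin sulfate, of which 5 were lower and 6 higher, with a median of 0.015. Cntn1, a neural adhesion molecule that binds tenascin-R, measured 11119, 11085 and 11470 normalized counts in controls and 6444, 11490 and 8812 in p300-ifKO mice (log2 fold change -0.33, SE 0.21, DESeq2 adjusted p = 0.991). Rtn4r, the Nogo receptor, measured 1869, 1978 and 1778 in controls and 2861, 1710 and 2275 in p300-ifKO mice (log2 fold change 0.28, SE 0.20, DESeq2 adjusted p = 0.991). In both genes p300-ifKO replicate 2 lay on the side of the controls and the groups overlapped. Without that library, 6 of the 41 genes of the 4 lists that had an adjusted p passed the threshold (14.6%), 5 lower and 1 higher, against 7.9% of all genes in that fit.

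The cell types that make or carry the matrix were read through their markers. The 6 markers of CA2 pyramidal neurons summed to 7891 to 8546 normalized counts in controls and 7028 to 10636 in p300-ifKO mice, with overlap, and their median log2 fold change was 0.092 (-0.051 without p300-ifKO replicate 1). The 10 astrocyte markers summed to 133496 to 136647 in controls and 121920 to 129056 in p300-ifKO mice, without overlap. Their median log2 fold change was -0.051, with 7 lower and 3 higher (Aldh1l1, Gfap and Aldoc). Slc1a2, the most abundant of them, went from a mean of 69111 to 61761 normalized counts, with overlap, as for Bcan, Ncan and Tnc. Slc1a3 went from a mean of 20358.6 to 17145.5 without overlap (log2 fold change -0.25, DESeq2 adjusted p = 0.991). Such a lack of overlap was found for 7.46% of genes with a mean normalized count above 10. The 7 meningeal fibroblast markers, of which none was at 0 in all libraries, had a median log2 fold change of -0.46, and their sums were 2431 to 4053 in controls and 1724 to 2716 in p300-ifKO mice, with overlap. Without control replicate 3 that median was -0.022, with 4 lower and 3 higher, and with 1 surrogate variable it was -0.20. The 8 microglia markers summed to 8210 to 9006 in controls and 9133 to 10445 in p300-ifKO mice, with a median log2 fold change of 0.18. The sums did not overlap, by a narrow margin, and the highest was that of p300-ifKO replicate 1. Cx3cr1 (-0.090) and P2ry12 (-0.015) were lower and the other microglia markers higher. The part of these cell types in the levels of the matrix genes was not tested.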

How the data were processed

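The authors sequenced hippocampal RNA of 6 male mice with single-end reads of 50 bases and 1 library per mouse, so that replicates are separate animals. The deposited table holds raw counts per gene made by the authors, who trimmed reads (Trim Galore 0.6.4, FastQC 0.11.8), aligned them with STAR 2.6.1 to mm10/GRCm38, kept reads above a mapping quality of 10 and counted exons of Ensembl genes with Rsubread. The strand setting is not given in the sources used here, and the quality limit lowers genes with near-identical copies. Of all exonic stretches of 50 bases, 2.71% in Tnr, 2.1% in Has2 and at most 1.04% in the other matrix genes also occur in another gene. The search covered both strands of the other genes, so these shares can include transcripts that overlap a matrix gene at the same place. Such an overlap is not a near-identical copy, and the quality limit does not remove its reads for that reason.

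Of 55471 genes, 55230 (99.57%) matched GENCODE M21 by identifier, which gave symbols and coordinates, and the deposited exonic length was the same for 99.11%. Groups and replicate numbers came from the sample titles. All per-sample columns of the table were used, with 0 left out. The fit was over the whole table: DESeq2 1.42.0 in R 4.3.3 (the submitters' notes name version 1.30.1), two-sided Wald test, median-of-ratios size factors, no covariate, Benjamini-Hochberg adjustment over 32773 genes and a threshold of 0.05. Intervals are 95% intervals. RPKM, TPM and CPM were computed from the deposited counts and lengths and were given no test.

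Alternatives were edgeR 4.0.16 (quasi-likelihood, with and without a filter), limma-voom 3.58.1, TMM factors in DESeq2, at least 10 counts in at least 3 libraries, a replicate block, length and GC offsets from mgcv 1.9.3 (mean normalized count above 10), 1 surrogate variable from sva 3.50.0 and leaving out each library. The DESeq2, edgeR and limma-voom fits were run on simulated counts with changes larger than those of the matrix genes. No trend with length or GC content was simulated, so this does not show how the fits behave under such a trend. Named beyond the matrix genes were Ep300 and Esr1, the neighbour Hapln3, the 2 genes with the smallest unadjusted p in each of 4 lists, Mmp3, chosen after its values were seen, and the 3 genes most like Acan (log2 of normalized count + 1, mean of at least 50). The matrix genes and lists were chosen with earlier results of these data known. Total counts per library were between 23151568 and 28433823.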

Additional observations from a re-analysis of the deposited data

How the results depend on the processing

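The 14 alternative fits gave 140 values for the matrix genes, of which 122 kept direction and side of the threshold, 17 changed sign without passing it and 1 (Tnr without p300-ifKO replicate 2) passed it. No matrix gene passed in the other 13 fits. Genes called over the table numbered 2 as reported, 3 with the surrogate variable, 4 with the replicate block and 2 to 926 with 1 library left out, the highest without p300-ifKO replicate 2. Leaving out 1 library gave 0 to 1 matrix genes called and 0 to 6 genes of the 4 lists. No label says whether mice with the same replicate number are pairs. Their deviations from the group means correlated at 0.27, -0.28 and 0.13 over 17071 genes, which cannot settle it. The block changed no call of a matrix gene. Signs changed with 1 surrogate variable for Bcan (-0.017), Hapln1 (0.034), Hapln4 (-0.041), Has2 (0.17) and the medians of the other hyaluronan and link genes (0.021) and of net receptors and ligands (-0.049), and with length and GC offsets for Bcan (-0.00028), Hapln2 (-0.025), Hapln4 (-0.046) and the same medians (0.035 and -0.11). Without 1 library, the median of the matrix genes was between -0.22 and -0.0063, and their log2 fold changes ranged from -0.061 to 0.095 for Hapln4, -0.70 to 0.19 for Has2, -0.14 to 0.27 for Tnc, -0.42 to 0.014 for Hapln1, -0.0074 to 0.23 for Hapln2, -0.55 to -0.16 for Vcan, -0.42 to -0.056 for Acan and -0.24 to -0.047 for Ncan, and the list medians from -0.21 to 0.054 for the other hyaluronan and link genes, from -0.19 to -0.015 for chondroitin sulfate enzymes, from -0.22 to -0.065 for proteases and inhibitors and from -0.20 to 0.054 for net receptors and ligands. The cause was not tested. CPM kept 5 of 10 ranks, and length and GC offsets left 1 of 10 genes without overlap between the groups. With 2 to 18 reads per library, Has2 has the widest interval.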
